A study of Mus musculus with 6 samples.

Results

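Adipokines are hormones and other signalling proteins that fat tissue releases into the blood or onto neighbouring cells. The 9 genes described here were chosen by name as adipokines made by fat cells: Adipoq, Lep, Retn, Cfd, Nampt, Rarres2, Metrnl, Serpina12 and Nrg4. They are 9 of the 46603 gene identifiers in the count tables, and 8 of them, all but Serpina12, had enough counts to be tested. Earlier results of these data were known when the 9 were chosen. RNA was sequenced from untreated visceral fat, the fat of the abdominal cavity, taken from C57/Bl6 mice at 18 months of age. One group held 3 libraries from wild-type mice (WT) and the other 3 from NM1 KO mice, which lack nuclear myosin 1, a nuclear isoform of the motor protein encoded by Myo1c. The labels name neither the altered part of the Myo1c locus nor the sex of the mice. Whether the replicates are different animals is not stated either, and p-values here speak only to how far these 6 libraries scatter, and that scatter may be technical.

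Fat cells store triglyceride and report on the size of that store through their secreted proteins. Leptin rises in blood with fat mass and acts on the brain to restrain feeding, while adiponectin acts on liver and muscle and usually falls in obesity. Other adipokines are enzymes of the complement system, chemoattractants for immune cells or growth factors, and several of them are also made by cells other than adipocytes.

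Levels are given as CPM, counts per 1000000 counts after TMM scaling of the library totals, and as CPM per 1000 bases of exon where genes are set beside each other. Fold changes compare NM1 KO with WT on the log2 scale, with their standard errors, and called genes are those with an edgeR quasi-likelihood p under 0.05 after Benjamini-Hochberg adjustment over all tested genes. By that rule 1 of the 8 tested adipokines, Metrnl, rose, while 4.25% of all 15828 tested genes were called and 2.79% rose. Counts of genes called in the lists below are to be read against these shares. In 6 of the 8 the 3 WT and 3 NM1 KO libraries did not overlap, with 2 genes higher in NM1 KO and 4 lower. Such separation was seen in 29.9% of all tested genes, with 14.9% higher and 15.0% lower. An unadjusted p under 0.05 was reached by 5 of the 8 and by 23.7% of all tested genes. DESeq2 called 5 of the 8 (Lep, Retn, Cfd, Metrnl and Nrg4) and 12.8% of the genes it tested. The corresponding figures were 2 (Retn and Metrnl) and 10.1% with limma-voom, and 2 (Metrnl and Nrg4) and 5.03% with edgeR after a correction for GC content and exon length. With the replicate number as a block edgeR called 1 (Cfd) and 2.12%, and with block and correction together 4 (Lep, Retn, Cfd and Metrnl) and 4.32%. Leaving out NM1 KO replicate 2 gave 2 (Retn and Metrnl) and 10.2%. The median log2 fold change of all tested genes was -0.002.

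**Figure D1:**
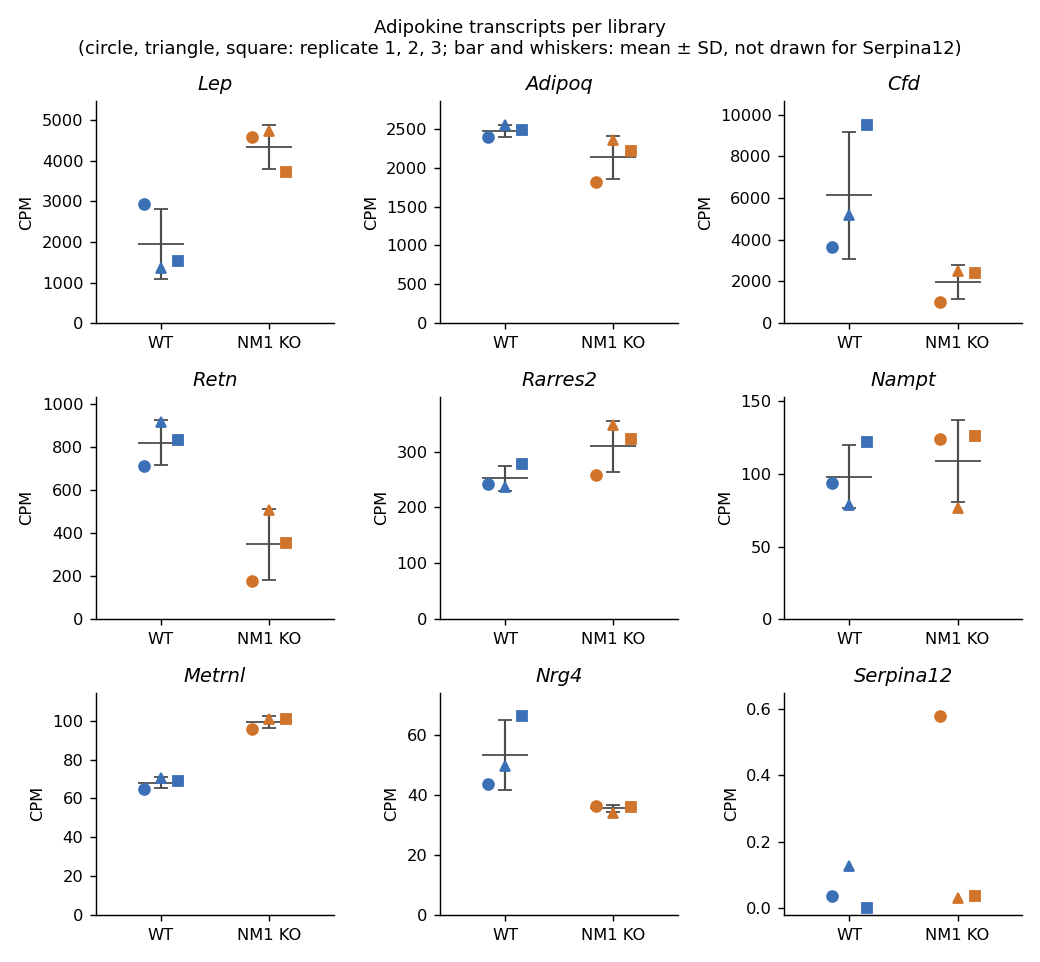
Level of each adipokine transcript in CPM (vertical axis of each panel, linear) in the 3 WT and 3 NM1 KO libraries; circles, triangles and squares are replicates 1, 2 and 3, and bars with whiskers are the mean ± SD. Lep and Metrnl lay higher in every NM1 KO library than in any WT library, Retn, Cfd, Nrg4 and, by a narrow margin, Adipoq lay lower, and Serpina12 stayed under 1 CPM.

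The promoters of Lep, Cfd, Retn and Adipoq are printed because these are the 4 most abundant of the adipokine transcripts and they moved by unlike amounts and in opposite directions. Each line gives the 250 bases before the RefSeq start site, 5′ to 3′ on the strand of the gene, with the motifs searched in capitals.
Lep, chr6:29059971-29060220, GRCm38.p6, + strand: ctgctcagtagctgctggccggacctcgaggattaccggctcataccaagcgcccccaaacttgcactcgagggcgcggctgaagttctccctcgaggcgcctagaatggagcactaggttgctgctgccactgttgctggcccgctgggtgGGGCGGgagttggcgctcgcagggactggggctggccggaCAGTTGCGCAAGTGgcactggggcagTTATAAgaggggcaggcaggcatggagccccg
Cfd, chr10:79890603-79890852, GRCm38.p6, + strand: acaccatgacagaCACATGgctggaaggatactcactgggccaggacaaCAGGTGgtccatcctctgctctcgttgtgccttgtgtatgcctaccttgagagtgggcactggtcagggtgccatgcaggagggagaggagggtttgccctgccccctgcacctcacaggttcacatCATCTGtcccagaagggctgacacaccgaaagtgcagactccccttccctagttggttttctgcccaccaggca
Retn, chr8:3655520-3655769, GRCm38.p6, + strand: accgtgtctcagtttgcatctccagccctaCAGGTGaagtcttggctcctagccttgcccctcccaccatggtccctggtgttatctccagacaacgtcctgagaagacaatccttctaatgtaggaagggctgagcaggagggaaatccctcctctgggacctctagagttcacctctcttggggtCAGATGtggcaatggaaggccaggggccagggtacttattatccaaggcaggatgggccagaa
Adipoq, chr16:23146286-23146535, GRCm38.p6, + strand: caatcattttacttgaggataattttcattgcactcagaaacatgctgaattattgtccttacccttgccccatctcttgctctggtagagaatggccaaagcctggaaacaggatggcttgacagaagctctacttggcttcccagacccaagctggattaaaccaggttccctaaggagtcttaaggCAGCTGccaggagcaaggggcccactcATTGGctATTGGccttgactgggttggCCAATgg
The motifs were searched on both strands, with positions counted back from the start site at the first base of the match, and their frequency was taken over 32817 RefSeq mouse promoters of the same length. The Lep window held TTGCGCAA at -55, a match to the C/EBP motif TTGCNNAA that 9.6% of promoters hold. C/EBP factors are transcription factors of fat cell differentiation. On either side that match overlapped an E-box (CANNTG, in 66.2% of promoters), at -58 and -50. The same window held a TATA box (TATAA, in 22.8%) at -31, whose other-strand match overlaps it at -32, and a GC box (GGGCGG, in 32.7%) at -98. Neither the Cfd nor the Retn window held a match to the C/EBP, CCAAT, GC box or TATA motifs. Their matches were E-boxes, at -237, -201 and -74 in Cfd and at -220 and -63 in Retn. The Adipoq window held 3 CCAAT boxes (CCAAT, in 33.8% of promoters), at -34, -27 and -7, and 1 E-box at -61. The nuclear receptor half-site AGGTCA, found in 14.0% of promoters, was in none of these 4 windows. RefSeq promoters were found for 8 of the 9 genes. A match describes letters only, and no binding was measured.

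Cfd, Adipoq, Lep and Retn were among the most abundant transcripts of this tissue. Per kilobase of exon, Cfd ranked 1 of 15774 tested genes in WT, at a mean of 6646 CPM per kilobase, and 9 in NM1 KO, at 2142. Adipoq ranked 13 in WT and 17 in NM1 KO, at 1794 and 1544 CPM per kilobase. Lep moved from rank 60 in WT, at 580.3 CPM per kilobase, to rank 23 in NM1 KO, at 1296. Retn moved the other way, from rank 68 at 519.3 CPM per kilobase to rank 176 at 220.0. The lower levels belonged to Rarres2 (94.84 and 116.4 CPM per kilobase in WT and NM1 KO), Metrnl (42.94 and 62.6), Nampt (19.43 and 21.55) and Nrg4 (8.744 and 5.835). The means per kilobase followed the same order in both groups: Cfd, Adipoq, Lep, Retn, Rarres2, Metrnl, Nampt and Nrg4. Among neighbours in that order, the libraries of Lep and Retn overlapped in WT. In NM1 KO the overlapping neighbours were Cfd with Adipoq, Adipoq with Lep, and Retn with Rarres2. Together the 9 genes took 1.03%, 1.05% and 1.51% of all counts in WT replicates 1 to 3. They took 0.808%, 1.04% and 0.926% in NM1 KO replicates 1 to 3. The groups overlapped in this share (exact two-sided permutation p = 0.2, and 3 against 3 cannot go below 0.1).

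Lep encodes leptin (ENSMUSG00000059201, chromosome 6, 29060220 to 29073877 on the + strand of GRCm38). In replicates 1, 2 and 3 its level was 2939, 1363 and 1538 CPM for WT and 4578, 4737 and 3722 CPM for NM1 KO, the order used for every gene here. All 3 NM1 KO libraries lay above the highest WT library, and WT replicate 1 stood well above the other two. The means were 1946 ± 864.0 CPM in WT and 4346 ± 545.9 CPM in NM1 KO (SD, n = 3 each), a ratio of 2.23. The log2 fold change was 1.16 ± 0.31, and edgeR's adjusted p of 0.0805 missed the threshold. Over the 12 alternative fits to all libraries the adjusted p of Lep ran from 0.00229 (DESeq2) to 0.0873.

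Adipoq encodes adiponectin (ENSMUSG00000022878, chromosome 16, 23146536 to 23158028, + strand), the most abundant hormone of fat cells in blood. It stood at 2397, 2549 and 2487 CPM in WT and at 1818, 2360 and 2217 CPM in NM1 KO. The NM1 KO libraries were all lower, but replicate 2 came close to the lowest WT library. With a log2 fold change of -0.22 ± 0.15 and an edgeR adjusted p of 0.413, Adipoq was not called.

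The ratio of Lep to Adipoq counts, which does not depend on library scaling, was 1.226, 0.5346 and 0.6183 in WT and 2.518, 2.007 and 1.679 in NM1 KO. Lep counts exceeded Adipoq counts in every NM1 KO library and in 1 WT library. The geometric mean of the ratio was 2.76-fold higher in NM1 KO (difference of 1.46 on the log2 scale, exact two-sided permutation p = 0.1, the smallest possible here).

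Cfd encodes complement factor D, also called adipsin (ENSMUSG00000061780, chromosome 10, 79890853 to 79892655, + strand), the serine protease that starts the amplification loop of the alternative complement pathway. Its level was 3662, 5201 and 9521 CPM in WT and 1025, 2493 and 2407 CPM in NM1 KO. Every NM1 KO library lay below every WT library, and the spread was wide on both sides: the highest library exceeded the lowest 2.6-fold in WT and 2.43-fold in NM1 KO. The WT mean of 6128 ± 3038 CPM was 3.10 times the NM1 KO mean of 1975 ± 823.8 CPM (SD, n = 3 each). The log2 fold change was -1.63 ± 0.46 with an edgeR adjusted p of 0.0902, so Cfd was not called. Its adjusted p ran from 0.00136 (DESeq2) to 0.211 over the 12 alternative fits.

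The other genes of the alternative pathway were set beside Cfd. Of 10 tested, 2 rose and 0 fell, with a median log2 fold change of 0.24. C3ar1, the receptor for the C3a fragment and a gene of myeloid cells, rose from 41.9, 37.75 and 48.53 CPM in WT to 151.3, 104.9 and 101.9 CPM in NM1 KO (log2 fold change 1.48 ± 0.19, edgeR adjusted p = 0.0186). Hc, which encodes complement C5, rose from 1, 0 and 1 counts in WT to 20, 13 and 32 counts in NM1 KO (edgeR adjusted p = 0.0337). C3, the component that the pathway cleaves, stood at 4032 to 5804 CPM in WT and 5056 to 5306 CPM in NM1 KO (edgeR adjusted p = 0.962). Cfb, the substrate of factor D, ran from 22.41 to 39.76 CPM in WT and from 22.66 to 28.29 CPM in NM1 KO (edgeR adjusted p = 0.539). C3 and Cfb overlapped between the groups where Cfd did not. C3 and Cfb were chosen for mention as the direct partners of Cfd after their values were known.

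Retn encodes resistin (ENSMUSG00000012705, chromosome 8, 3655770 to 3660110, + strand), which in mice is made by white adipocytes. It measured 710.7, 917.2 and 832.0 CPM in WT and 177.4, 508.9 and 355.9 CPM in NM1 KO. All NM1 KO libraries lay below the WT libraries, with NM1 KO replicate 1 the lowest and NM1 KO replicate 2 the highest of their group. Means were 819.9 ± 103.8 CPM in WT and 347.4 ± 165.9 CPM in NM1 KO (SD, n = 3 each), a ratio of 2.36 in favour of WT. The log2 fold change was -1.24 ± 0.35 with an edgeR adjusted p of 0.0937. Without NM1 KO replicate 2 it was -1.62 with an edgeR adjusted p of 0.0326, and over the 12 alternative fits to all libraries the adjusted p ran from 0.0041 (DESeq2) to 0.203.

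The resistin-like paralogs did not pass the test. Retnla, a product of macrophages and fat stroma, ran at 898.1, 522.9 and 1645 CPM in WT and at 67.2, 490.8 and 555.2 CPM in NM1 KO (log2 fold change -1.46 ± 0.75, edgeR adjusted p = 0.284). The groups overlapped and NM1 KO replicate 1 was far below the rest. Retnlg, a neutrophil gene, was at 1.553, 12.08 and 3.206 CPM in WT and at 0.2253, 0.8241 and 0.255 CPM in NM1 KO (log2 fold change -3.67 ± 0.90, edgeR adjusted p = 0.0685). Of the 7 tested genes of the wider paralog list edgeR called 0, with 1 at an unadjusted p under 0.05, and DESeq2 called 1.

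Metrnl encodes meteorin-like (ENSMUSG00000039208, chromosome 11, 121701544 to 121716306, + strand), a secreted protein of adipose tissue, muscle and macrophages that acts on immune cells. It rose from 64.86, 70.55 and 68.92 CPM in WT to 95.90, 100.9 and 101.0 CPM in NM1 KO. The replicates were tight, at 68.11 ± 2.931 CPM and 99.29 ± 2.934 CPM (SD, n = 3 each), and the gap between the means exceeded either SD. The increase was 1.46-fold (log2 fold change 0.54 ± 0.09, edgeR adjusted p = 0.0287). This call was lost when any library other than NM1 KO replicate 2 was left out, with edgeR adjusted p up to 0.119 and log2 fold changes of 0.51 to 0.59. Over the 12 alternative fits to all libraries the log2 fold change ran from 0.51 to 0.77, the highest with the GC and length correction. The adjusted p ran from 2.31e-05 (DESeq2) to 0.0585 (edgeR with the replicate block). Macrophage markers moved with Metrnl: 4 of 10 (Adgre1, Cd68, Lyz2 and Trem2) rose and 0 fell by the test. Of the other 6, 3 had positive values and 3 negative (Cd163 at -0.85, Itgam at -0.16 and Cd14 at -0.08). The summed level of the 10 was 2040 to 2670 CPM in WT and 4010 to 5200 CPM in NM1 KO, most of it from Lyz2 (means of 1156 and 2536 CPM), and none of the 10 was at 0 in any library. The part of macrophage RNA in the Metrnl result was not tested.

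Nrg4 encodes neuregulin 4 (ENSMUSG00000032311, chromosome 9, 55220222 to 55326844, - strand), an epidermal growth factor-like protein that brown fat releases in quantity and that acts on the liver. It measured 43.63, 49.64 and 66.08 CPM in WT and 36.27, 34.03 and 36.03 CPM in NM1 KO. The 3 NM1 KO libraries lay close together, below all WT libraries. The log2 fold change was -0.58 ± 0.16 with an edgeR adjusted p of 0.0878, and the 12 alternative fits gave adjusted p from 0.0298 (DESeq2) to 0.118. By gene span, introns included, Nrg4 shares 4212 bases with Fbxo22, a gene on the opposite strand with a mean count of 2322. Overlap of their exons was not measured. Reads in any shared exon cannot be told apart without strand, so the level of Nrg4 is uncertain. Among 6 tested markers of brown or beige adipocytes, Cidea and Otop1 rose and 0 fell. The summed level of the 8 listed markers was at most 26.8 CPM in WT and 52.4 to 59.4 CPM in NM1 KO. Ucp1, the uncoupling protein that defines brown fat, reached at most 0.5149 CPM in any library, and Elovl3 at most 0.06393 CPM.

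Rarres2 encodes chemerin (ENSMUSG00000009281, chromosome 6, 48569696 to 48572789, - strand), a chemoattractant for macrophages and dendritic cells. It was at 241.9, 236.8 and 277.0 CPM in WT and at 257.6, 347.8 and 321.9 CPM in NM1 KO. The groups overlapped through NM1 KO replicate 1 and WT replicate 3, and the log2 fold change of 0.30 ± 0.14 had an edgeR adjusted p of 0.256. By gene span, introns included, Rarres2 shares 1027 bases with Lrrc61 on the opposite strand, whose mean count was 224.7.

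Nampt encodes nicotinamide phosphoribosyltransferase, known as visfatin when secreted (ENSMUSG00000020572, chromosome 12, 32819545 to 32853349, + strand). Inside cells it is the rate-limiting enzyme of NAD salvage. It stood at 93.55, 78.92 and 122.1 CPM in WT and at 123.8, 76.64 and 126.4 CPM in NM1 KO, with wide overlap. By gene span, introns included, Nampt shares 5033 bases with Gdap10, a non-coding RNA gene on the same strand with a mean count of 37.67. Overlap of their exons was not measured, and reads in any shared exon cannot be assigned to one of the pair. The log2 fold change of 0.15 ± 0.24 (edgeR adjusted p = 0.736) became -0.02 when trends of counts with GC content and exon length were taken out. The exons of Nampt had the lowest GC content of the 9 genes, 41.4%, and NM1 KO replicates 1 and 3 carried fewer counts in GC-rich genes than the other libraries. Of 13 tested genes that make or use NAD, Qprt rose and 0 fell. Qprt, the quinolinate phosphoribosyltransferase of NAD synthesis from tryptophan, went from 1.072, 0.7672 and 0.9617 CPM in WT to 4.988, 5.219 and 4.081 CPM in NM1 KO (log2 fold change 2.35, edgeR adjusted p = 0.0182).

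Serpina12 encodes vaspin, a serine protease inhibitor (ENSMUSG00000041567, chromosome 12, 104028769 to 104044443, - strand). It had 1, 4 and 0 counts in WT and 18, 1 and 1 counts in NM1 KO. Only WT replicate 2 and NM1 KO replicate 1 exceeded a floor of 3 counts, which corresponds to 0.0895 to 0.122 CPM depending on the library. Serpina12 was not tested, and no fold is given.

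**Figure D2:**
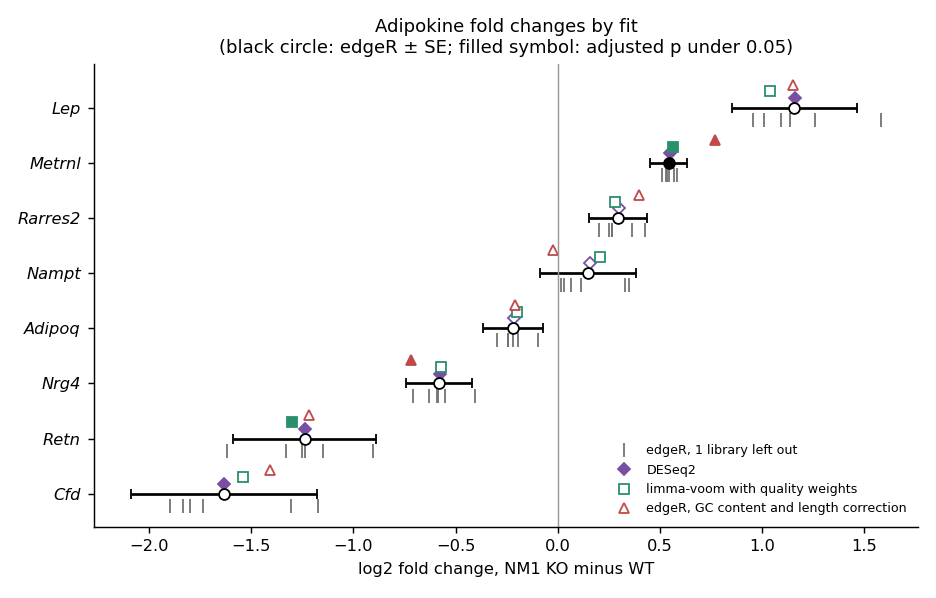
log2 fold change of the 8 tested adipokines, NM1 KO minus WT (horizontal axis), from edgeR on all libraries with bars of 1 standard error, beside DESeq2, limma-voom, the GC and length correction and the edgeR fits with 1 library left out (ticks); filled symbols had an adjusted p under 0.05. Lep at 1.16 and Cfd at -1.63 marked the ends of the range, and Metrnl at 0.54 had the shortest error bar.

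To set each adipokine beside the cells that make it, its CPM was divided by the geometric mean of 16 markers of mature adipocytes. In bulk tissue, fewer cells of a type and less RNA per cell cannot be told apart. The marker mean itself was lower in NM1 KO, at 1864, 1827 and 1737 CPM in WT against 1300, 1601 and 1483 CPM in NM1 KO, a difference of -0.31 on the log2 scale without overlap (exact two-sided permutation p = 0.1). Of the 16 markers taken singly edgeR called 0, with 6 lower at an unadjusted p under 0.05, DESeq2 called 4 lower and limma-voom 2. Of their 16 fold changes 11 were negative and 5 positive (Lpl, Gpd1, Cd36, Acsl1 and Dgat2, none called). The lowest was that of Adrb3, the fat cell adrenergic receptor, at -1.99 (edgeR adjusted p = 0.0804). With Adrb3 left out, a choice made after seeing the data, the mean of the other 15 markers was 1986, 1925 and 1824 CPM in WT and 1591, 1833 and 1639 CPM in NM1 KO, and the groups overlapped (exact two-sided permutation p = 0.2). Plin1, the lipid droplet coat protein, had a log2 fold change of -0.30 (edgeR adjusted p = 0.342). Cidec, which enlarges lipid droplets, had -0.23 (edgeR adjusted p = 0.435), and Lipe, hormone-sensitive lipase, -0.31 (edgeR adjusted p = 0.259). Fabp4, the fatty acid binding protein of adipocytes, had -0.13 (edgeR adjusted p = 0.660) and stood at 7658 CPM or above in all libraries. Plin1, Cidec and Lipe stood at or above 1308, 2758 and 1181 CPM, so transcripts of these adipocyte markers were present in each library.

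Relative to these markers Adipoq was 1.286, 1.395 and 1.432 in WT and 1.399, 1.475 and 1.495 in NM1 KO. The groups overlapped, with a log2 difference of 0.09 (exact two-sided permutation p = 0.2). Nrg4 also overlapped on this scale, at -0.25 (exact permutation p = 0.5). Lep was 1.577, 0.7458 and 0.8852 in WT and 3.523, 2.96 and 2.51 in NM1 KO, a log2 difference of 1.55. Retn (-1.05) and Cfd (-1.31) were still lower in every NM1 KO library than in any WT library. Metrnl (0.86) and Rarres2 (0.60) were higher in every NM1 KO library. Each of these 5 had an exact two-sided permutation p of 0.1, the smallest that 3 against 3 allows, among 8 genes compared in this way. The share of all genes that separate on this scale was not computed. The lower marker mean in NM1 KO raises the ratio of any gene there. Against the 15 markers without Adrb3 these 5 still did not overlap, at 1.42 for Lep, -1.18 for Retn, -1.45 for Cfd, 0.73 for Metrnl and 0.47 for Rarres2, while Adipoq turned to -0.04. The separation of Rarres2 was seen only on these relative scales, since its own CPM overlapped.

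**Figure D3:**
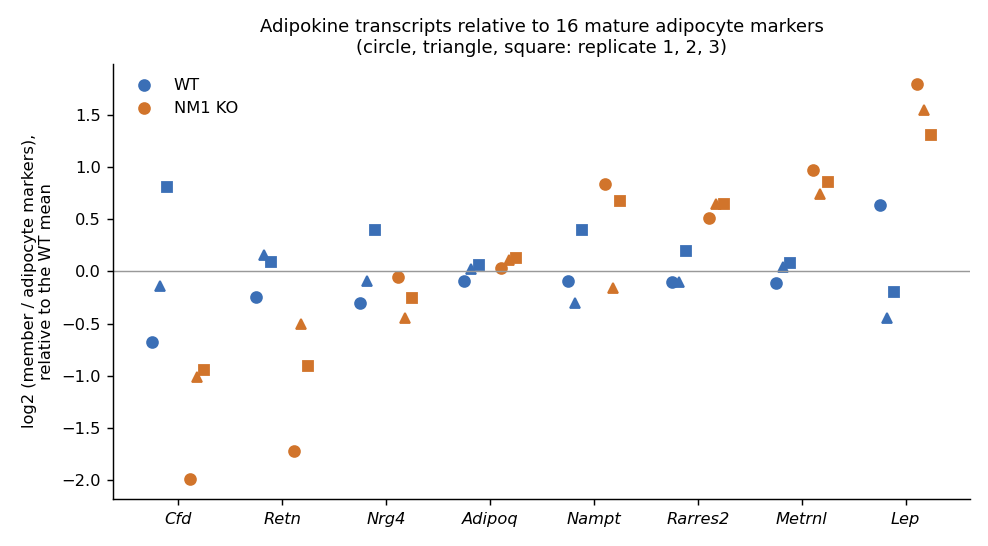
Ratio of each adipokine to the geometric mean of 16 mature adipocyte markers (vertical axis, log2, with the WT mean of each gene set to 0) in the 3 WT and 3 NM1 KO libraries; circles, triangles and squares are replicates 1, 2 and 3. Adipoq and Nrg4 overlapped between the groups, Lep, Metrnl and Rarres2 were higher in every NM1 KO library, and Retn and Cfd were lower.

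Receptors and binding partners of these proteins were examined next. Of 12 listed, 10 were tested and edgeR called 0, with 2 at an unadjusted p under 0.05, Cdh13 and Cmklr1. DESeq2 and limma-voom each called 2 of the 10, both lower. The median log2 fold change was -0.25, and 8 of the 10 values were negative. Cdh13, T-cadherin, which binds high molecular weight adiponectin on vessel walls, measured 52.84, 39.16 and 37.11 CPM in WT and 15.96, 27.29 and 22.52 CPM in NM1 KO (log2 fold change -0.97 ± 0.23, edgeR adjusted p = 0.0609). The groups did not overlap. Markers of vascular endothelium were lower as well: 5 of 8 (Cdh5, Tie1, Emcn, Egfl7 and Sox18) fell and 0 rose, with a summed level of 748 to 961 CPM in WT and 290 to 455 CPM in NM1 KO. The part of endothelial RNA in the Cdh13 values was not tested.

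Adipor1, a receptor of adiponectin, was at 187.7, 186.1 and 181.6 CPM in WT and 180.7, 196.6 and 177.3 CPM in NM1 KO (edgeR adjusted p = 0.992). Adipor2, the other, had a log2 fold change of -0.32 ± 0.17 (edgeR adjusted p = 0.299), with overlap between the groups. Cmklr1, the signalling receptor of chemerin, was at 230.9, 236.6 and 227.7 CPM in WT and 144.8, 205.6 and 136.0 CPM in NM1 KO (log2 fold change -0.52 ± 0.17, edgeR adjusted p = 0.120). Every NM1 KO library lay below every WT library. Gpr1 and Ccrl2, which also bind chemerin, stayed under 10 CPM with edgeR adjusted p of 0.560 and 0.238. Lepr, the leptin receptor, ran from 0.8311 to 3.661 CPM in WT and from 0.8546 to 3.571 CPM in NM1 KO, so the groups overlapped almost throughout (edgeR adjusted p = 0.866). Cap1, described as a resistin receptor, had an edgeR adjusted p of 0.403. Kit, described as a Metrnl receptor, was at 16.15 to 21.77 CPM in WT and 16.51 to 17.60 CPM in NM1 KO (edgeR adjusted p = 0.432). Erbb3, a partner in neuregulin receptors, had an edgeR adjusted p of 0.629. Erbb4, the receptor of neuregulin 4, stayed at or below 0.4408 CPM and was not tested. Klk7, the protease that vaspin inhibits, had 0 counts in all 6 libraries.

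Downstream of leptin and adiponectin receptors, edgeR called 0 of 13 signalling genes, with 5 at an unadjusted p under 0.05, while DESeq2 and limma-voom each called 1, higher. Ppara, the fatty acid oxidation regulator, was at 3.032, 2.365 and 2.725 CPM in WT and 5.407, 5.738 and 4.554 CPM in NM1 KO (log2 fold change 0.95 ± 0.23, edgeR adjusted p = 0.0631). Its groups did not overlap. Sh2b1, an adaptor of the leptin receptor, had a log2 fold change of -0.35 ± 0.11 (edgeR adjusted p = 0.119).

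Among the transcription factors that act on adipokine genes, edgeR called 0 of 12, with 3 lower at an unadjusted p under 0.05, and DESeq2 and limma-voom each called 1, lower. Srebf1, the regulator of lipid synthesis, was at 414.9, 561.4 and 562.0 CPM in WT and 279.5, 356.2 and 303.0 CPM in NM1 KO (log2 fold change -0.71 ± 0.16, edgeR adjusted p = 0.0579). Nr1h3, the sterol sensor LXR alpha, had -0.28 ± 0.11 (edgeR adjusted p = 0.168). In both genes every NM1 KO library was the lower.

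Of 8 genes listed for folding and release of adiponectin, edgeR called Sirt6 alone, which fell. Sirt6 is a nuclear deacetylase and not a chaperone of the secretory path, and the chaperones and modifiers on the list were not called. Its level was 18.67, 16.53 and 17.63 CPM in WT and 10.04, 11.14 and 10.93 CPM in NM1 KO (log2 fold change -0.72, edgeR adjusted p = 0.0342). Of 14 tested genes with the C1q-like domain of adiponectin, Col8a1 rose and 0 fell. Col8a1, a collagen of vessel walls and matrix, was at 9.725, 10.61 and 10.58 CPM in WT and 23.59, 17.21 and 28.97 CPM in NM1 KO (log2 fold change 1.17, edgeR adjusted p = 0.0307).

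The list of other secreted factors of fat had 24 tested genes, of which 1 rose and 2 fell. Gdf15, a stress-induced hormone that reduces appetite, rose from 2.145, 2.909 and 1.683 CPM to 14.55, 7.05 and 8.344 CPM (log2 fold change 2.15, edgeR adjusted p = 0.0287). Vegfa, the vessel growth factor, fell from 368.7, 371.7 and 382.6 CPM to 138.8, 227.4 and 170.5 CPM (log2 fold change -1.07, edgeR adjusted p = 0.0304). Lgals12, an adipocyte galectin of lipid droplets, fell from 241.0, 250.6 and 317.6 CPM to 126.1, 159.9 and 160.2 CPM (log2 fold change -0.86, edgeR adjusted p = 0.0332). In these 3 genes no library of either group reached the range of the other. Over the 9 lists around the adipokines, 111 of 126 genes were tested. Of these 8 were called, 5 higher and 3 lower, which is 7.21% against 4.25% of all tested genes. The lists were chosen with earlier results of these data known, so these shares do not test the listed genes against the rest. The count of called genes depended on which library was left out. Leaving out NM1 KO replicate 2 gave 18, leaving out NM1 KO replicate 1 gave 3, and leaving out any of the other 4 gave 0. In those 4 fits 26 to 31 of the 111 had an unadjusted p under 0.05 by edgeR. With all libraries 34 of the 111 and 23.7% of all tested genes had one, and the share over all genes was not computed for the subsets. The fall of Sirt6 was no longer called after the correction for GC content and length (-0.46).

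**Figure D4:**
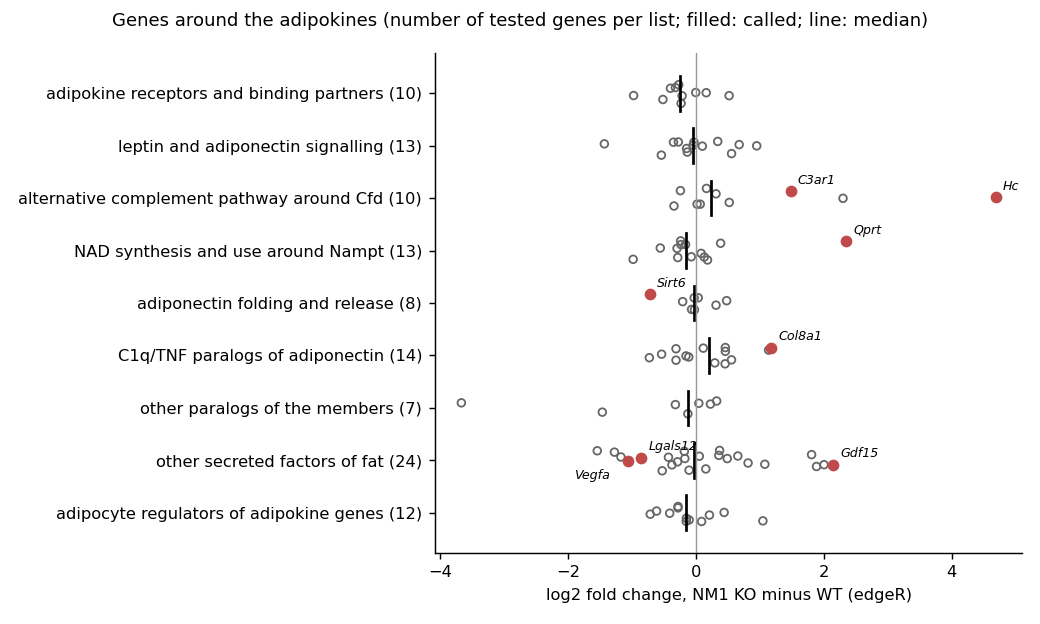
log2 fold change, NM1 KO minus WT (horizontal axis), of the tested genes in 9 lists around the adipokines; each circle is a gene, filled circles were called by edgeR and the vertical line is the median of the list. Medians lay between -0.25 for receptors and 0.24 for the complement list, and the 8 called genes are named; the fitted value of Hc depends on the prior count because WT held at most 1 count per library.

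The genes whose levels followed an adipokine most closely were taken as a description, by Pearson's r of log2 CPM over the 6 libraries among 9751 genes whose mean reached 10 CPM. With 6 points from libraries that share depth and composition, high values are easily reached. For Lep they were Ipp (0.9949), Mxi1, a MAX-binding repressor (0.9948), and Mmp12, macrophage elastase (0.9935). Mmp12 was at 120, 7.99 and 10.9 CPM in WT and at 837, 481 and 328 CPM in NM1 KO (edgeR adjusted p = 0.107). WT replicate 1 was the highest WT library for Mmp12, Ipp and Mxi1 as for Lep, which their choice by r favours. For Adipoq they were Isca1, an iron-sulphur cluster factor of mitochondria (0.9973), Eci1, an enzyme of fatty acid oxidation (0.9968), and Eral1, a mitochondrial ribosome assembly factor (0.9949). Retn was followed by Slc22a18 (0.9983), Derl1, a factor of protein export from the endoplasmic reticulum (0.9974), and Itgb1bp1 (0.9965).

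Library totals ran from 24677758 to 33537818 counts. Myo1c, which covers the targeted locus, stood at 759.1 to 801.3 CPM in WT and 452.3 to 696.5 CPM in NM1 KO (log2 fold change -0.47, edgeR adjusted p = 0.151), and since the count holds all isoforms it does not check the knockout. The deviation of a library from the mean of all correlated with GC content across genes, with Spearman's rho from 0.114 to 0.307 in WT and of -0.394, 0.241 and -0.425 in NM1 KO replicates 1 to 3.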

How the data were processed

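Per the labels' protocols, total RNA (500 ng per library) from the tip of visceral fat went into NEBNext Ultra II RNA libraries that were read on a NextSeq. HISAT2 2.0.4, HTSeq, Trimmomatic 0.36, SAMtools 0.1.19 and FastQC are listed, with build GRCm38 (mm10), per the submitters' processing notes. For the counting, annotation and strand are not given in the sources used. The authors deposited whole-number counts per gene for each library, without normalization. The tables held 0 entries that name no gene. Names, positions and exon lengths came from GENCODE M21 on GRCm38, which matched 46091 of 46603 identifiers, and promoters from RefSeq (GRCm38.p6).

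The members and gene lists were chosen with earlier results of these data known. Samples were grouped by labelled genotype. Genes were tested with edgeR 4.0.16 (filterByExpr, TMM, robust quasi-likelihood fit, genotype as the only term) in R 4.3.3, two-sided, with Benjamini-Hochberg adjustment over all tested genes. Ratios and shares were compared by exact permutation of the 6 libraries. The text names the 9 members, the receptors, Plin1, Cidec, Lipe and Fabp4 whatever their values, called genes of each list, and otherwise the 2 of smallest p whose mean reached 1 CPM, with any other gene marked as chosen later or given as a marker. Alternatives were DESeq2 1.42.0, limma-voom (limma 3.58.1) with quality weights, other size factors and filters, non-robust dispersion, protein-coding genes alone, a replicate block, a correction for GC content and length (natural splines, 5 degrees of freedom), both together, and leaving out each library. No library pair within a group was a repeat deposit: each differed by more than counting noise (chi-square per degree of freedom from 35.9 to 107.2). That does not show that they are separate animals.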

Additional observations from a re-analysis of the deposited data

How the results depend on the processing

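Among all genes DESeq2 called 2193 and limma-voom 1605 against 673 by edgeR. Among the adipokines DESeq2 called 5, limma-voom 2 and the GC and length correction 2, against 1. Among the related genes DESeq2 called 23 and limma-voom 17, against 8. DESeq2 called Lep at 1.16, Retn at -1.24, Cfd at -1.63 and Nrg4 at -0.58 on the log2 scale; limma-voom called Retn at -1.30, and the GC and length correction called Nrg4 at -0.72. That correction turned Nampt to -0.021. Adipor1, near 0 throughout, turned positive without a filter on low counts (0.001), with DESeq2 (0.002) and with the GC and length correction (0.082). List medians moved for receptors (limma-voom -0.13, GC and length correction -0.38), leptin and adiponectin signalling (upper-quartile factors -0.084), complement (0.11 with the 1 CPM filter), other paralogs (0.12 with the GC and length correction) and other secreted factors (-0.15 with the 1 CPM filter, 0.13 with the GC and length correction). Relative to adipocyte markers without the 3 most abundant, Adipoq was at 0.17, and relative to those without Adrb3 (chosen after seeing the data) it was at -0.044 and Metrnl at 0.73. The median for adiponectin folding and release, -0.024, was positive with limma-voom (0.013) and with the GC and length correction (0.067). The 1 CPM filter also changed which genes the medians covered, with 107 related genes tested against 111. The cause of these shifts was not tested further.

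The labels do not say that the replicate numbers pair animals, so the numbers were not taken as pairs. Same-numbered WT and NM1 KO libraries deviated together with r of -0.06, -0.0354 and 0.188. Across numbers, WT replicate 1 with NM1 KO replicate 2 gave 0.112, and WT replicate 2 with NM1 KO replicate 1 gave 0.107. The largest r of all pairs was the 0.188 of the same-numbered replicates 3. Deviations were taken from group means of 3 libraries, so these values depend on each other and cannot settle a pairing. The deposited WT files carry other numbers than the sample titles, and the titles were used, so what the block stands for is uncertain. With the replicate block edgeR called 336 genes, 1 adipokine (Cfd at -1.63) and 4 related genes, and Metrnl at 0.54 was no longer called (adjusted p = 0.0585). With the replicate block and the GC and length correction it called 4 adipokines, Lep at 1.24, Retn at -1.31, Cfd at -1.37 and Metrnl, and 13 related genes. In that fit Nampt was at -0.011, Adipor1 at 0.081, and the list medians at -0.38 for receptors, 0.31 for C1q/TNF paralogs, 0.19 for other paralogs and 0.16 for other secreted factors.

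Leaving out 1 library gave between 1 and 1654 called genes, 0 to 2 adipokines and 0 to 18 related genes. All genes called numbered 37, 4 and 1 without WT replicates 1, 2 and 3, and 244, 1654 and 5 without NM1 KO replicates 1, 2 and 3. edgeR called 0 adipokines without any library other than NM1 KO replicate 2. In those fits 5 or 6 of the 8 had an unadjusted p under 0.05 by edgeR, and the share over all genes was not computed there. DESeq2 and limma-voom were not run on those subsets. Without NM1 KO replicate 2 edgeR called Metrnl and Retn. The log2 fold change ran from 0.51 to 0.59 for Metrnl, from -1.62 to -0.91 for Retn, from 0.96 to 1.58 for Lep and from -1.90 to -1.17 for Cfd. Adipor1 ran from -0.048 to 0.031 and was positive in 4 of these fits. Lepr ran from -0.828 to 0.161, positive without WT replicate 1 (0.161) and without NM1 KO replicate 2 (0.151). List medians ran from -0.317 to -0.092 for receptors, from -0.123 to -0.023 for signalling, from 0.105 to 0.326 for C1q/TNF paralogs, from -0.155 to 0.075 for other secreted factors and from -0.281 to -0.075 for regulators. Those for adiponectin folding and release (-0.099 to 0.078) and other paralogs (-0.204 to 0.023) crossed 0. Serpina12, Erbb4 and Klk7 had too few counts to be tested.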
